A study of Mus musculus with 15 samples.

Results

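The transcription factor p53 and 9 of its direct target genes were followed in mouse B16-F10 cells edited to lower Ssbp4 and in mouse MC38 cells made to overexpress it. The 10 genes were taken by symbol, namely Trp53, Mdm2, Cdkn1a, Ccng1, Plk2, Bbc3, Bax, Tnfrsf10b, Trp53inp1 and Sesn1, and all 10 were present among the 55303 gene entries of the B16-F10 table and the 54343 entries of the MC38 table. Ssbp4 encodes a member of the single-stranded DNA binding protein family, whose members bind the LIM-domain cofactor Ldb1, and the study compared cells with more or less of it.

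Polyadenylated RNA was sequenced in 15 libraries. B16-F10, a melanoma line of C57BL/6 origin, gave 4 knockout (KO) libraries from cells electroporated with Cas9 and a mixture of guide RNAs against Ssbp4, and 4 wild-type (WT) libraries from cells given Cas9 with a guide against an intergenic site. MC38, a colon adenocarcinoma line of C57BL/6 origin, gave 3 overexpression (OE) libraries from cells transduced with a retroviral Ssbp4 vector that also carries EGFP, and 4 libraries from wild-type cells. The labels name no empty-vector group for MC38 and do not say whether the edited B16-F10 cells were used as a pool or as clones. Nor do they state that replicate libraries are independent cultures; each p-value therefore reflects only library-to-library spread, possibly technical. In RNA from bulk cultures, fewer cells expressing a gene and less of its RNA per cell cannot be told apart.

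In unstressed cells p53 protein is held low by Mdm2, a ubiquitin ligase that marks it for degradation and whose own gene p53 activates, so that the pair forms a feedback loop. When DNA damage or other stress frees p53, it binds paired half-sites in DNA and activates genes for cell cycle arrest, cell death, repair and stress defence. Control of p53 lies mostly in its protein, so Trp53 mRNA and p53 activity need not move together.

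Values are FPKM, a fragment count divided by gene length and by the library's mapped fragments, so that genes of a library can be set side by side. Estimated depth was 32.3 to 48.5 M fragments (M, 1e6) per library in B16-F10 and 32.3 to 38.1 M in MC38. Ssbp4 itself stood at 23.1, 21.998, 24.3 and 19.0 FPKM in the KO libraries and at 32.7, 37.4, 32.4 and 35.4 FPKM in the WT libraries of B16-F10, and at 462 to 581 FPKM in OE and 13.2 to 17.6 FPKM in WT libraries of MC38, so Ssbp4 mRNA was lower in every KO library, at 64.1% of the WT mean, and higher in every OE library. The mRNA level does not show how much of the gene was disrupted. B16-F10 libraries expressed all 7 melanocyte markers, summing to 13644 to 14154 FPKM in KO and 10982 to 14075 FPKM in WT, while 0 of 6 epithelial, 0 of 4 fibroblast and 0 of 4 endothelial markers averaged 1 FPKM and Epcam, Krt8, Krt18 and Krt19 were listed at 0. Of 6 leukocyte markers 1 did, Cd68, and the list summed to 2.08 to 3.66 FPKM in KO and 1.27 to 2.87 FPKM in WT. MC38 carries the tissue label melanoma, yet 0 of 7 melanocyte markers averaged 1 FPKM there and Mlana was listed at 0. Of its epithelial markers 2 of 6 averaged 1 FPKM or more, with Krt8 between 2.74 and 10.7 FPKM. The B16-F10 WT libraries did not form 1 group. On the first principal component of all tested genes, with 42.8% of the variance, WT libraries 1 and 2 lay at -9.43 and -10.4, WT libraries 3 and 4 both at 17.8, and the KO libraries between -7.81 and -1.91. KO library 4 stood apart from the other KO libraries on the second component, with 28.2% of the variance, at -1.04 against -11.1 to -8.68.

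The first comparison set B16-F10 KO libraries against the WT libraries that had received the control guide. Plk2 and Trp53inp1 fell in KO cells, to 63.1% and 70.8% of the WT mean. Trp53 itself averaged 88.4 ± 2.21 FPKM in KO and 86.7 ± 5.36 FPKM in WT libraries (SD, n = 4 each). Of the 10 genes 2 passed an adjusted p of 0.05, both lower in KO and 0 higher. Of the 10902 tested genes 2.23% were called, 0.899% lower and 1.33% higher. At an unadjusted p under 0.05 there were 5 of the 10, against 21.3% of all tested genes. The tests used limma on log2(FPKM + 1), with Benjamini-Hochberg adjustment across every gene tested in the line. The median log2 fold change was -0.26 over the 10 genes and 0.02 over all tested genes. The groups did not overlap for 3 of the 10, Plk2, Trp53inp1 and Tnfrsf10b, all lower in KO, against 13.9% of all tested genes, 5.32% lower and 8.53% higher.

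Trp53 mRNA stood at 90.3, 88.5, 89.6 and 85.3 FPKM in KO libraries 1 to 4, against 88.3, 93.6, 81.8 and 83.1 FPKM in WT libraries 1 to 4. The KO values lay inside the WT range, with a log2 fold change of 0.03 and a 95% interval of -0.09 to 0.15 (SE 0.05, adjusted p = 0.784, limma).

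Mdm2, the inhibitor and target of p53, stood at 30.1, 28.2, 29.6 and 33.8 FPKM in KO libraries 1 to 4, against 39.7, 40.1, 33.6 and 35.4 FPKM in WT libraries 1 to 4. KO libraries 1 to 3 lay below every WT library, and KO library 4 lay just above WT library 3. The log2 fold change was -0.28 (SE 0.07, 95% interval -0.45 to -0.12), and the difference did not pass over all tested genes (adjusted p = 0.0757, limma). It passed without KO library 4 (adjusted p = 0.0458).

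Among the arrest genes, Cdkn1a, which encodes the cyclin-dependent kinase inhibitor p21, had the widest spread. It stood at 58.5, 55.1, 54.4 and 85.9 FPKM in KO libraries 1 to 4, against 119.9, 123, 74.0 and 77.5 FPKM in WT libraries 1 to 4. WT libraries 1 and 2 were highest, KO libraries 1 to 3 lowest, and KO library 4 lay above WT libraries 3 and 4. The means of 63.5 ± 15.1 FPKM in KO and 98.7 ± 26.5 FPKM in WT (SD, n = 4 each) were not called (adjusted p = 0.126, limma), at -0.62 on the log2 scale with an SE of 0.20.

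Ccng1, which encodes cyclin G1, a partner of the phosphatase PP2A in the regulation of Mdm2, had a like order of libraries. It stood at 76.4, 77.1, 77.9 and 98.7 FPKM in KO libraries 1 to 4, against 117, 113, 82.1 and 82.6 FPKM in WT libraries 1 to 4. Again KO libraries 1 to 3 were lowest and KO library 4 lay between the WT libraries. The log2 fold change of -0.24 did not pass (SE 0.13, adjusted p = 0.334, limma).

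The promoters of these 2 genes are shown because Cdkn1a and Ccng1 ran in a like order over the B16-F10 libraries. They also hold the closest matches to the p53 consensus element among the 8 genes with a promoter window. A like order was not particular to them. Mdm2 had a Pearson r with Cdkn1a of 0.975, against 0.960 for Ccng1. The best match in its 1 window was 15 of 20 letters, and bases outside that window were not searched. The element is a palindrome of 2 half-sites of 10 letters, searched here without a spacer, and reads alike on both strands. Promoter windows of 300 bases, from 250 before to 50 after an annotated start, were taken from RefSeq on GRCm38.p6 and matched 8 of the 10 genes, all but Tnfrsf10b and Trp53inp1. In the sequences below, 5′ to 3′ along the gene's strand, capitals mark the best-matching 20 bases.
Cdkn1a, upstream of its first of 2 starts, chr17:29090729-29091028, plus strand: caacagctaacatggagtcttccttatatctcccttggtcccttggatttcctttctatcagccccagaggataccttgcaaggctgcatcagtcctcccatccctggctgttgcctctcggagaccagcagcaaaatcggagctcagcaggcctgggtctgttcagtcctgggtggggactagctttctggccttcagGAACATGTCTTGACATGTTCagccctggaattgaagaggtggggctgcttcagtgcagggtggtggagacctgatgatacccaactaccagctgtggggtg
Ccng1, chr11:40755237-40755536, minus strand: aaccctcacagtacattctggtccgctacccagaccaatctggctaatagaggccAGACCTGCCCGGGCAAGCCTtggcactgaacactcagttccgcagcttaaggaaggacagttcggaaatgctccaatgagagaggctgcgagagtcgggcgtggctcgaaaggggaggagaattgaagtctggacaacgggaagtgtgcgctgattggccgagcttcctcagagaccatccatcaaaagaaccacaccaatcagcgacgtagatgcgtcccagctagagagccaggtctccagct
In both windows 19 of the 20 letters fit the element, at bases -51 to -32 of this Cdkn1a start and -195 to -176 of the Ccng1 start. The window of the second Cdkn1a start reached only 15 of 20 letters. Such a match, 19 letters or more, occurred in 29 of 32851 windows of the same length (0.0883%). It is a description of the letters and not evidence of binding, and the FPKM values do not say which start was used.

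Matches in the other windows were weaker and common. In their best windows Trp53, Bbc3, Bax and Sesn1 each reached 17 of 20 letters, a match found in 6.29% of all windows. Mdm2 and Plk2 reached 15, found in 76.6%. Further windows of Bbc3 reached 15 and 14 letters and that of Sesn1 14, found in 98.5%. These shares are per window, whereas Cdkn1a, Bbc3 and Sesn1 each had more than 1 window. The 4 stretches at 17 are given to show how they depart from the element, with capitals for the letters that fit and lower case for those that do not.
Trp53, chr11:69580284-69580303, plus strand: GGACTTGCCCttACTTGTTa
Bbc3, chr7:16309486-16309505, plus strand: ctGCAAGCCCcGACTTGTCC
Bax, chr7:45467090-45467109, minus strand: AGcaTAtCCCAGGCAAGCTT
Sesn1, chr10:41887266-41887285, plus strand: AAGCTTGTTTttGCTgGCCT
Of these, Trp53 and Sesn1 keep 1 complete half-site at the start of the stretch and Bax at its end, while Bbc3 keeps none. Absence of a match says only that these letters are not in the window.

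Plk2, a polo-like kinase of centriole duplication that p53 induces, fell in KO cells. It stood at 3.83, 3.76, 3.60 and 4.57 FPKM in KO libraries 1 to 4, against 7.26, 6.79, 5.95 and 4.99 FPKM in WT libraries 1 to 4. Every KO library lay below every WT library. The log2 fold change was -0.55 (SE 0.11, adjusted p = 0.0426, limma). The call was kept without KO library 4 or WT library 4 and lost without any 1 of the other 6 libraries, where the adjusted p reached 0.151.

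None of the 3 death genes passed in B16-F10. Tnfrsf10b, the death receptor for the ligand TRAIL, stood at 3.88, 4.06, 3.47 and 4.71 FPKM in KO libraries 1 to 4, against 5.48, 5.86, 4.91 and 5.02 FPKM in WT libraries 1 to 4. The groups did not overlap, but the log2 fold change of -0.33 missed the threshold (SE 0.09, adjusted p = 0.0698, limma) and passed only without KO library 4 (adjusted p = 0.0373).

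Bax, which forms pores in the mitochondrial outer membrane, stood at 147, 149, 142 and 161 FPKM in KO libraries 1 to 4, against 169, 178, 135 and 152 FPKM in WT libraries 1 to 4. KO values lay within the WT range, with a log2 fold change of -0.07 (95% interval -0.26 to 0.11, adjusted p = 0.663, limma). Bbc3, which encodes the BH3-only protein Puma, stood at 3.06, 3.42, 4.19 and 4.18 FPKM in KO libraries 1 to 4, against 3.73, 4.30, 2.72 and 2.47 FPKM in WT libraries 1 to 4. The groups overlapped, with a log2 fold change of 0.14 (95% interval -0.18 to 0.46, adjusted p = 0.610, limma).

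Of the stress genes, Trp53inp1, a nuclear protein that promotes p53 phosphorylation, fell. It stood at 13.4, 13.8, 13.4 and 16.5 FPKM in KO libraries 1 to 4, against 22.1, 22.4, 18.4 and 17.8 FPKM in WT libraries 1 to 4. Every KO library lay below every WT library, and the log2 fold change was -0.47 (SE 0.09, adjusted p = 0.0435, limma). The call was kept without KO library 4 and lost without any 1 of the other 7 libraries, where the adjusted p reached 0.152.

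Sesn1, a sestrin that restrains the growth kinase complex mTORC1, ran in another order. It stood at 5.52, 5.59, 5.96 and 5.28 FPKM in KO libraries 1 to 4, against 3.99, 3.85, 6.46 and 5.69 FPKM in WT libraries 1 to 4. WT libraries 1 and 2 lay below every KO library, WT library 3 above them all and WT library 4 among them. The log2 fold change of 0.16 did not pass (95% interval -0.14 to 0.46, adjusted p = 0.538, limma).

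**Figure D1:**
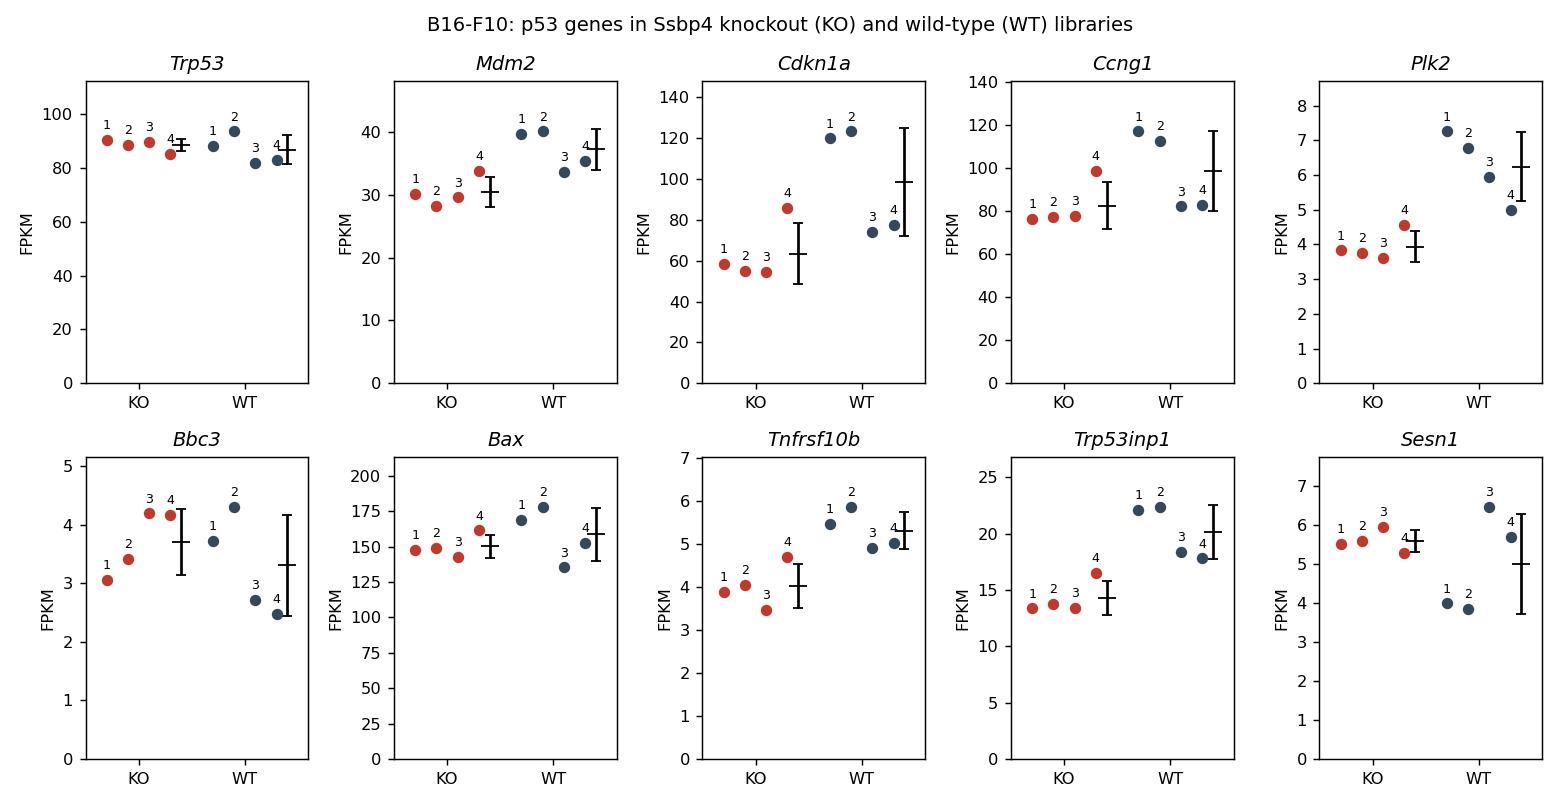
FPKM of the 10 genes in each B16-F10 library, KO in red and WT in dark blue, with the replicate number beside each point and the group mean with its SD as a black bar; every axis starts at 0. KO libraries 1 to 3 lie below every WT library for Mdm2, Cdkn1a, Ccng1, Plk2, Tnfrsf10b and Trp53inp1, and WT libraries 1 and 2 lie above WT libraries 3 and 4 for those genes.

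KO library 4 decided several of these values. KO libraries 1 to 3 lay below every WT library for 6 of the 10 genes, Mdm2, Cdkn1a, Ccng1, Plk2, Tnfrsf10b and Trp53inp1, against 8.33% of all tested genes. In a fit without KO library 4, 4 of the 10 genes were called, all lower (Mdm2, Plk2, Tnfrsf10b and Trp53inp1), against 1.35% of tested genes called lower and 3.79% called in either direction. Cdkn1a was then at -0.77 on the log2 scale with an SE of 0.19 and was not called (adjusted p = 0.0621, limma). For each of the 6 genes KO library 4 was the highest KO library, so leaving it out lowers their KO means by construction. The 6 genes also varied together over the libraries, with a Pearson r with Cdkn1a of 0.920 to 0.975. Both counts are therefore descriptions and not separate observations. KO library 4 also had the lowest Ssbp4 level of the 8 libraries, 19.0 FPKM. Without any 1 of KO libraries 1 to 3 or WT libraries 1 to 3, 0 of the 10 were called, and without WT library 4 there was 1, Plk2. The signs of all 10 log2 fold changes were the same in the 8 fits that each left out 1 library.

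**Figure D2:**
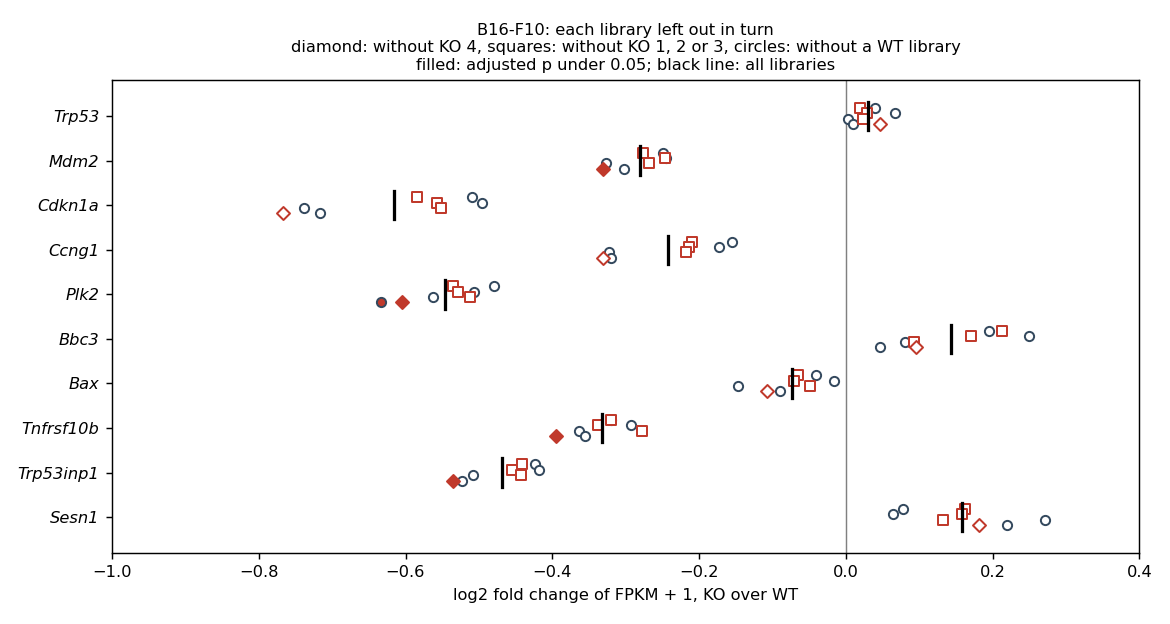
Log2 fold change of FPKM + 1 (KO over WT) for each gene when 1 B16-F10 library was left out, with the value from all libraries as a black line, diamonds for the fit without KO library 4, squares for fits without KO library 1, 2 or 3 and circles for fits without a WT library. Filled symbols passed an adjusted p of 0.05; Cdkn1a moved most, between -0.77 and -0.50, and no gene crossed 0.

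The second comparison set the 3 MC38 OE libraries against the 4 MC38 WT libraries. Trp53 fell, and its targets moved in both directions. Mdm2, Plk2, Bax and Bbc3 fell, while Ccng1, Tnfrsf10b and Sesn1 rose, and Cdkn1a averaged 11.4 ± 0.266 FPKM in OE and 12.2 ± 0.973 FPKM in WT cells (SD, n = 3 and 4). Of the 10 genes 9 were tested, since Trp53inp1 was below a mean of 1 FPKM, and 8 were called, 3 higher and 5 lower, against 47.5% of the 10748 tested genes, 23.9% higher and 23.6% lower. At an unadjusted p under 0.05 there were 8 of the 9, against 54.3% of all tested genes. The groups did not overlap for 7 of the 9 tested genes, against 50.6% of all tested genes. The median log2 fold change was -0.25 over the 9 genes and -0.01 over all tested genes. Fibroblast markers summed to 383 to 391 FPKM in OE and 81.6 to 87.1 FPKM in WT libraries, 3 of 4 averaging at least 1 FPKM. Most of the sum was Dcn, at 62.7 to 322 FPKM over the MC38 libraries, and Pdgfra, at 17.0 to 67.2 FPKM. Lum lay at 0.117 to 2.59 FPKM and Col1a1 at only 0.0264 to 0.211 FPKM. Leukocyte markers summed to 3.04 to 4.16 FPKM in OE and 2.06 to 2.86 FPKM in WT libraries, 1 of 6 averaging at least 1 FPKM, with Cd3e listed at 0. Epithelial markers summed to 8.94 to 10.7 FPKM in OE and 6.60 to 8.85 FPKM in WT libraries, and endothelial markers to 0.164 to 0.287 FPKM in OE and 0.0388 to 0.107 FPKM in WT libraries. The part of these markers in the results for the p53 genes was not tested.

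Trp53 stood at 82.8, 82.6 and 80.8 FPKM in OE libraries 1 to 3, against 94.7, 98.8, 99.4 and 98.3 FPKM in WT libraries 1 to 4. Every OE library lay below every WT library, and the log2 fold change was -0.25 (SE 0.03, adjusted p = 1.19e-04, limma). Mdm2 stood at 23.1, 21.3 and 21.4 FPKM in OE libraries 1 to 3, against 26.4, 26.4, 28.1 and 27.2 FPKM in WT libraries 1 to 4. It too fell without overlap, by 0.29 on the log2 scale (SE 0.04, adjusted p = 3.88e-04, limma).

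Of the arrest genes, Cdkn1a stood at 11.1, 11.5 and 11.7 FPKM in OE libraries 1 to 3, against 10.8, 12.9, 12.4 and 12.8 FPKM in WT libraries 1 to 4. WT library 1 was the lowest of the 7 and the groups overlapped, with a log2 fold change of -0.08 (95% interval -0.22 to 0.05, adjusted p = 0.291, limma). Without WT library 1 the fold change was -0.14 and passed (adjusted p = 0.0376). Ccng1 stood at 26.7, 27.8 and 27.2 FPKM in OE libraries 1 to 3, against 20.6, 19.1, 20.6 and 19.4 FPKM in WT libraries 1 to 4. It rose in every OE library, to 137% of the WT mean (log2 fold change 0.43, SE 0.04, adjusted p = 2.10e-05, limma).

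Plk2 had the largest fold change of the tested genes among the 10. It stood at 90.4, 92.9 and 89.8 FPKM in OE libraries 1 to 3, against 148, 148, 151 and 149 FPKM in WT libraries 1 to 4. The log2 fold change was -0.71 (SE 0.03, adjusted p = 5.22e-08, limma), and OE cells held 61.0% of the WT mean.

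The death genes moved in opposite directions. Tnfrsf10b stood at 15.2, 16.1 and 15.0 FPKM in OE libraries 1 to 3, against 10.6, 11.1, 10.7 and 10.9 FPKM in WT libraries 1 to 4, and rose to 143% of the WT mean (log2 fold change 0.48, SE 0.04, adjusted p = 1.53e-05, limma). Bax stood at 50.6, 47.1 and 49.9 FPKM in OE libraries 1 to 3, against 62.0, 66.5, 63.5 and 68.7 FPKM in WT libraries 1 to 4, and fell without overlap (log2 fold change -0.40, SE 0.04, adjusted p = 4.78e-05, limma). Bbc3 stood at 6.03, 4.51 and 4.35 FPKM in OE libraries 1 to 3, against 5.79, 7.80, 7.83 and 9.66 FPKM in WT libraries 1 to 4. It fell by 0.55 on the log2 scale (SE 0.14, adjusted p = 0.00959, limma) although OE library 1 lay above WT library 1, and it did not pass when no filter on low values was used (adjusted p = 0.0618).

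Sesn1 rose in OE cells, standing at 5.05, 5.35 and 4.47 FPKM in OE libraries 1 to 3, against 3.19, 3.05, 4.24 and 3.44 FPKM in WT libraries 1 to 4. The groups did not overlap (log2 fold change 0.42, SE 0.10, adjusted p = 0.00480, limma). Trp53inp1 was close to absent at this depth, at 0.226, 0.159 and 0.102 FPKM in OE libraries 1 to 3 and 0.169, 0.101, 0.139 and 0.0964 FPKM in WT libraries 1 to 4, and the groups overlapped. No test was made for it with the filter of 1 FPKM.

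**Figure D3:**
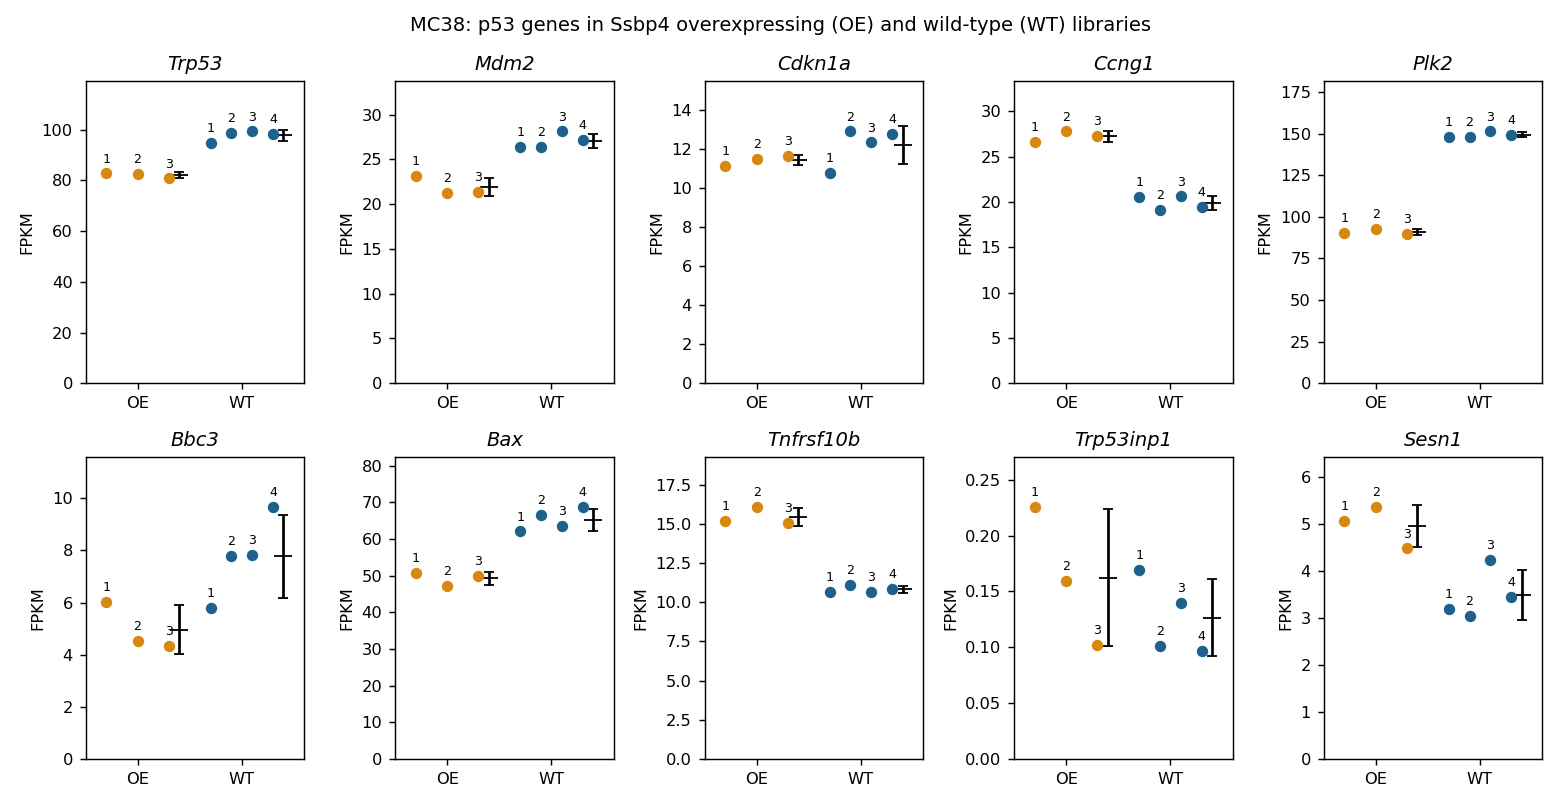
FPKM of the 10 genes in each MC38 library, OE in orange and WT in blue, with the replicate number beside each point and the group mean with its SD as a black bar; every axis starts at 0. OE libraries lie below WT libraries for Trp53, Mdm2, Plk2 and Bax and above them for Ccng1, Tnfrsf10b and Sesn1, while Cdkn1a, Bbc3 and the scarcely expressed Trp53inp1 overlap.

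Set side by side, Mdm2 and Plk2 had negative log2 fold changes of like size in both lines, -0.28 (KO over WT, not called) and -0.29 (OE over WT) for Mdm2 and -0.55 and -0.71 for Plk2, although Ssbp4 was lowered in one line and raised in the other. Ccng1 and Tnfrsf10b had fold changes of opposite sign, -0.24 and -0.33 in B16-F10, neither of them called, and 0.43 and 0.48 in MC38. Of the other genes tested in both lines, Cdkn1a (-0.62 and -0.08), Bax (-0.07 and -0.40) and Sesn1 (0.16 and 0.42) kept their sign. Trp53 (0.03 and -0.25) and Bbc3 (0.14 and -0.55) went from positive in B16-F10 to negative in MC38. None of these was called in B16-F10, and Cdkn1a was not called in MC38. The tables were normalised separately and the 2 alterations are different contrasts, so the difference between the lines was not tested.

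**Figure D4:**
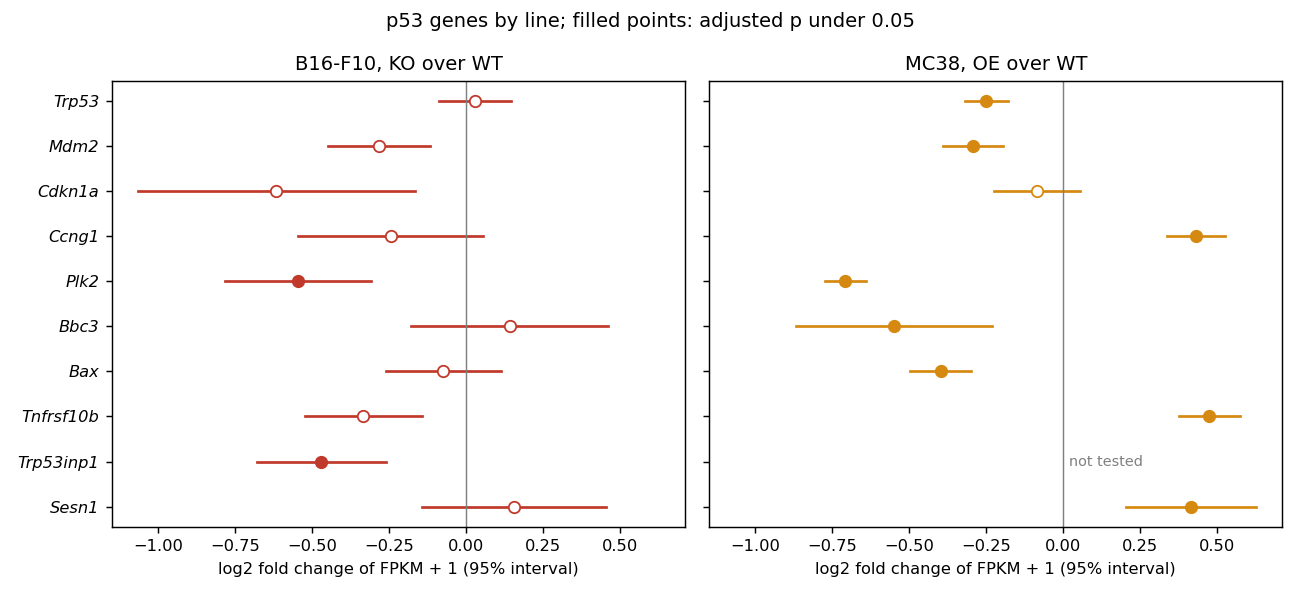
Log2 fold change of FPKM + 1 with its 95% interval for the 10 genes, on the left for B16-F10 (KO over WT) and on the right for MC38 (OE over WT); filled points passed an adjusted p of 0.05. In B16-F10 7 of 10 points lie below 0 and only Plk2 and Trp53inp1 are filled, while in MC38 5 of 8 filled points lie below 0.

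The lines also differed in how the genes ranked by level. In B16-F10 WT libraries Bax led with a mean of 159 FPKM, followed by Cdkn1a at 98.7, Ccng1 at 98.6 and Trp53 at 86.7 FPKM, whose libraries overlapped, then Mdm2 at 37.2 and Trp53inp1 at 20.2 FPKM. Plk2 at 6.25, Tnfrsf10b at 5.32, Sesn1 at 5.00 and Bbc3 at 3.31 FPKM formed the low end, where each gene's libraries overlapped those of the next. In MC38 WT libraries Plk2 led with 149 FPKM, ahead of Trp53 at 97.8 and Bax at 65.2 FPKM. Mdm2 at 27.05, Ccng1 at 19.9, Cdkn1a at 12.2, Tnfrsf10b at 10.8, Bbc3 at 7.77, Sesn1 at 3.48 and Trp53inp1 at 0.127 FPKM followed there, and among these neighbours in the order the libraries overlapped only between Cdkn1a and Tnfrsf10b. Trp53 mRNA was thus of similar level in both tables, while p21 mRNA was among the most abundant of the set in B16-F10 and among the less abundant in MC38; these levels come from separately normalised tables and were not tested against each other.

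Genes that act on p53 were examined next. In B16-F10, of 19 regulators and partners 16 were tested and 0 were called by limma, against 2.23% of all tested genes, and 0 passed at an unadjusted p under 0.05, against 21.3%. They had a median log2 fold change of 0.04 beside 0.02 over all tested genes. The most abundant were the deubiquitinase Usp7, which stabilises Mdm2 and p53, at 40.5 ± 0.373 FPKM in KO and 43.1 ± 1.55 FPKM in WT cells, and the ubiquitin ligase Cop1, at 33.8 ± 0.764 FPKM in KO and 35.6 ± 2.59 FPKM in WT cells (SD, n = 4 each). Cdkn2a, whose Arf product restrains Mdm2, was listed at 0 in all 8 B16-F10 libraries, whereas in MC38 it averaged 9.74 ± 1.14 FPKM in OE and 8.44 ± 0.619 FPKM in WT cells (adjusted p = 0.0824, limma; SD, n = 3 and 4). Cdkn2a is named here after its values were seen.

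In MC38, 17 of the 19 regulators were tested, with 2 higher and 3 lower in OE, against 23.9% higher and 23.6% lower over all tested genes. Their median log2 fold change was -0.04 beside -0.01 over all tested genes. The kinase Hipk2, which phosphorylates p53 in cell death, fell by 0.41 on the log2 scale (adjusted p = 0.00108, limma) and the acetyltransferase gene Crebbp fell by 0.25. The damage kinase Atm rose by 0.28 and the p53 partner Ppp1r13b by 0.20, but Atm did not pass in 6 and Ppp1r13b in 5 of 7 fits that each left out 1 library, where the adjusted p reached 0.131 and 0.146.

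Other p53 targets were counted from 3 lists, with 35 genes in all. In B16-F10 25 of them were tested and 0 were called by limma. At an unadjusted p under 0.05 there were 6 of the 25, near the 21.3% of all tested genes in either direction. All 6 were lower in KO, but the share of all tested genes lower at that threshold was not counted. Their log2 fold changes were negative for 14 and positive for 11, with a median of -0.01 beside 0.02 over all tested genes. Among the 13 tested arrest and repair genes the most abundant were Ccnd2, a D-type cyclin, at 143 ± 8.14 FPKM in KO and 139.7 ± 15.6 FPKM in WT cells, and Phlda3, a p53-induced inhibitor of Akt, at 38.1 ± 5.65 FPKM in KO and 52.7 ± 15.9 FPKM in WT cells (SD, n = 4 each). Of the 4 tested death genes the most abundant were Ei24, at 64.8 FPKM in KO and 65.3 FPKM in WT cells, and the exonuclease gene Aen, at 36.6 FPKM in KO and 42.2 FPKM in WT cells (adjusted p = 0.230, limma). Of the 8 tested genes of metabolism and stress these were Abhd4, at 33.4 FPKM in KO and 31.8 FPKM in WT cells, and Sesn2, at 19.997 FPKM in KO and 21.3 FPKM in WT cells. Zmat3, an RNA-binding p53 target named after its values were seen, averaged 12.4 ± 1.07 FPKM in KO and 16.1 ± 1.65 FPKM in WT cells (SD, n = 4 each; log2 fold change -0.35, adjusted p = 0.0582, limma). It was the 1 gene of these lists called when KO library 4 was left out (adjusted p = 0.0359).

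In MC38, 27 of the 35 other targets were tested and 16 were called, 7 higher and 9 lower in OE, against 23.9% higher and 23.6% lower over all tested genes. When 1 library was left out 11 to 16 were called, with 4 higher and 8 lower without WT library 2 and 4 higher and 7 lower without OE library 1. The median log2 fold change of the 27 was -0.02 beside -0.01 over all tested genes. Gadd45a, a damage-response gene of arrest and repair, fell to 17.1 ± 0.421 FPKM in OE, against 48.5 ± 1.66 FPKM in WT cells (log2 fold change -1.45, SE 0.04, adjusted p = 3.18e-09, limma; SD, n = 3 and 4). Ccnd2 fell by 0.33, Aen by 0.43, the receptor kinase gene Epha2 by 0.38 and Sesn2 by 0.33 on the log2 scale. Ddit4, an inhibitor of mTORC1 signalling, rose to 27.6 ± 0.654 FPKM in OE, against 18.2 ± 1.31 FPKM in WT cells (log2 fold change 0.58). Hexim1, which restrains transcription elongation, rose by 0.44 and the apoptosome gene Apaf1 by 0.31. The polymerase gene Polk (0.23), the ribonucleotide reductase gene Rrm2b (0.19) and Pidd1 (-0.17) also passed, but each lost its call in 4 or 5 of 7 fits that left out 1 library, with an adjusted p of up to 0.134, 0.0971 and 0.136. The death gene Pmaip1 was listed at 0 in all 15 libraries.

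Cell cycle genes that p21 lowers through the DREAM and RB complexes were counted as a further list. Of 11 such genes, all tested in B16-F10, 0 were called by limma, against 2.23% of all tested genes, and 1 passed at an unadjusted p under 0.05, against 21.3%. Of the 11, 9 had positive log2 fold changes, with a median of 0.17 beside 0.02 over all tested genes. The mitotic kinase Cdk1 averaged 213 ± 13.8 FPKM in KO and 199 ± 25.9 FPKM in WT cells, and the survival and mitosis gene Birc5 averaged 151 ± 16.2 FPKM in KO and 135 ± 23.3 FPKM in WT cells (SD, n = 4 each). In MC38 5 of the 11 were higher in OE, among them Ccnb2 (0.24) and Cdc25c (0.22), and 2 were lower, the replication gene Mcm5 (-0.20) and Cdk1 (-0.14), with a median of 0.10 over the list and -0.01 over all tested genes. Of all tested genes 23.9% were higher and 23.6% lower. Without OE library 1 Cdc25c and Cdk1 no longer passed (adjusted p = 0.0543 and 0.0528).

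Cdkn1b, which encodes p27, the relative of p21, was higher in the altered cells of both lines. In B16-F10 it averaged 41.5 ± 1.85 FPKM in KO and 34.7 ± 1.64 FPKM in WT cells (SD, n = 4 each; log2 fold change 0.25, adjusted p = 0.0462, limma), the 1 call among 9 tested genes of the E2F and RB family, and it kept that call in 1 of 8 fits that left out a library, with an adjusted p of up to 0.158 in the others. In MC38 it averaged 19.97 ± 1.22 FPKM in OE and 13.0 ± 0.730 FPKM in WT cells (SD, n = 3 and 4; log2 fold change 0.59, adjusted p = 2.00e-05, limma). The G1 genes Ccne1 (-0.31) and Cdk4 (-0.28) fell there, and the pocket protein gene Rbl2 (0.18) passed but lost its call in 4 of 7 fits that left out a library, with an adjusted p of up to 0.157. Of the 9 genes of this list in MC38 2 rose and 3 fell, near the 23.9% higher and 23.6% lower over all tested genes, with a median log2 fold change of -0.04 beside -0.01. In B16-F10 their median was 0.04 beside 0.02 over all tested genes, and 2.23% of all tested genes were called.

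**Figure D5:**
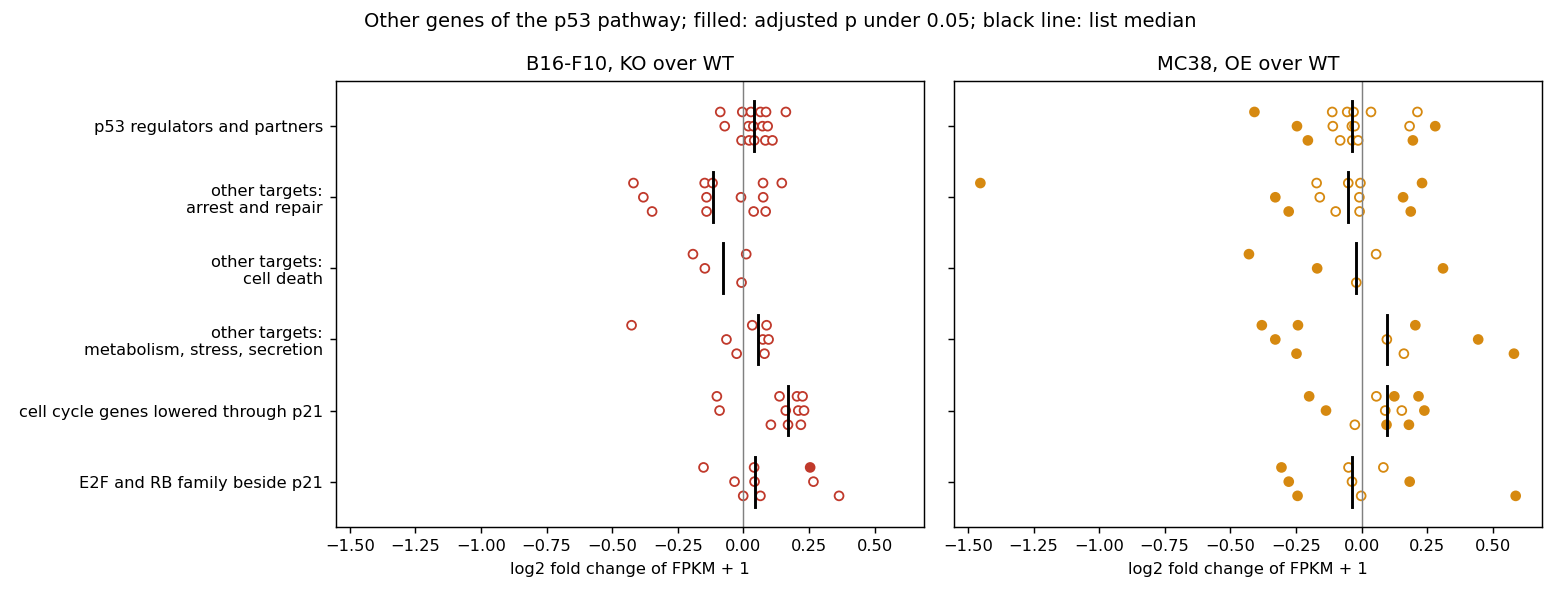
Log2 fold change of FPKM + 1 of each tested gene in 6 lists of the p53 pathway, on the left for B16-F10 (KO over WT) and on the right for MC38 (OE over WT), with filled points for an adjusted p under 0.05 and a black line at each list's median. In B16-F10 1 point is filled, Cdkn1b at 0.25, and in MC38 filled points lie on both sides of 0, with Gadd45a at -1.45 as the lowest.

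The genes whose pattern was most like that of Cdkn1a over the 8 B16-F10 libraries, by Pearson r of log2(FPKM + 1), were Rplp0 (r = 0.992), Snx15 (0.989) and Neu1 (0.989). Among the tested genes, leaving out predicted and clone names, Mdm2 came 7th (0.975), Ccng1 28th (0.960), Trp53inp1 35th (0.956), Tnfrsf10b 78th (0.929), Plk2 94th (0.920) and Bax 353rd (0.820). Bbc3 had an r of 0.288, Trp53 of 0.141 and Sesn1 of -0.830. Over the 7 MC38 libraries the genes most like Cdkn1a were Zfp768 (0.988), Mtss2 (0.987) and Echdc3 (0.979). There the r with Cdkn1a lay between 0.480 and 0.707 for Bbc3, Bax, Trp53, Plk2 and Mdm2, and it was negative for Sesn1 (-0.397), Tnfrsf10b (-0.445) and Ccng1 (-0.579). Those most like Trp53 were Pex6 (0.974), Lonp2 (0.968) and Ndufa13 (0.965) in B16-F10 and Recql4 (0.998), Myc (0.998) and Ube2k (0.997) in MC38. These values describe libraries that share their line and their group difference and vary in depth, and are given without a test.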

How the data were processed

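The authors deposited FPKM per gene symbol in 1 table per line, and the submitters' processing notes name GRCm39 and DESeq2. For aligner, counter and annotation, the sources used here give no name. RNA was polyA-selected with a stranded kit, per the labels' protocols. Columns were matched by library name, with 0 left unmatched. FPKM totals were 482580 to 511160 per library. Depth was estimated from low FPKM of single-transcript genes (GENCODE M21 lengths), of which 82.3 to 86.8% fell within 0.1 of a whole fragment, so counts were not recovered.

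Each line was tested alone on log2(FPKM + 1). Genes averaging 1 FPKM or more entered limma 3.58.1 (R 4.3.3; empirical Bayes with trend), with Benjamini-Hochberg adjustment over all tested genes and calls at 0.05. The scale understates changes of low genes. The procedure was also run on simulated data, with an outcome not reported here. The simulated noise was independent for each gene and library, without the split of the B16-F10 WT libraries. It therefore cannot vouch for the error rate in that line. Exons of Bax overlap another annotated gene, Gm45808, with at most 0.00790 FPKM. No other of the 10 genes had an exon overlap in GENCODE M21 with a gene listed in the deposited tables. Overlaps with genes not listed there were not recorded.

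The 10 genes and the lists were chosen with earlier results of these data known. Named besides the 10 and Ssbp4 were up to 2 highest and 2 lowest called genes per list and line, or the 2 most abundant tested genes, and the 3 genes most like Trp53 and Cdkn1a, leaving out predicted and clone names. Alternatives changed pseudocount, filter, scaling and replicate block and left out each library; leaving libraries out for the other targets was added after seeing the data. Figures used matplotlib 3.10.9.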

Additional observations from a re-analysis of the deposited data

Results flagged for a closer look

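In 3 of 33 sets of 4 libraries checked, 1 B16-F10 KO library stood far above the other 3, and it was KO library 4 each time: Cdkn1a at 85.9 FPKM, Ccng1 at 98.7 FPKM and Trp53inp1 at 16.5 FPKM, with gaps of 0.872, 0.935 and 0.866 of the group's range against a critical value of 0.829. In a further set Ssbp4 in MC38 WT library 1, at 13.2 FPKM, stood below the other WT libraries. Chance alone flags about 1 in 20 sets, but the sets are not independent. Ccng1 and Trp53inp1 had a Pearson r with Cdkn1a of 0.960 and 0.956 over the B16-F10 libraries. The 3 flags of KO library 4 are therefore not separate observations.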

How the results depend on the processing

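The direction of the fold change of every one of the tested genes among the 10 was the same in all alternatives run. In B16-F10 the side of the threshold was kept in 119 of 138 values, lost in 17 (Plk2 in 8 and Trp53inp1 in 9) and gained in 2. In MC38 it was kept in 114 of 116, lost for Bbc3 without a filter and gained for Cdkn1a without WT library 1. Of the 10 genes 2 were called in B16-F10, 0 without a filter on low values and 0 with the replicate block, and 0 to 4 when 1 library was left out. Over all genes 243 were called there, 73 without a filter and 12 with the replicate block, and 23 to 414 when 1 library was left out. Of the 243, 145 were higher and 98 lower, against 226 and 83 after rescaling to a common total and 84 and 112 with median-of-ratios scaling. In MC38 8 of the 10 and 3906 genes in all passed with the replicate block, against 5107 without it. Deviations from the group mean in same-numbered libraries had r between -0.298 and 0.165 in B16-F10 and between -0.288 and -0.066 in MC38. With so few pairs, and with the B16-F10 WT libraries split, these values cannot settle whether such libraries share a culture or preparation. The cause of these changes was not tested.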
